A study of Homo sapiens with 6 samples.

Results

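Poly(A) 3′-seq reads that pile up past the annotated end of a gene mark places where polyadenylated or A-rich RNA was primed beyond the last known transcript end. In a peak list taken to come from IMR-32 cells, 3892 peaks had a summit that lay in no Gencode gene body. These summits lay from 600 bp to 10 kb past the 3′ end of a protein-coding gene and not within 3 kb upstream of any gene start. They were 3892 of the 200023 peaks in the list, or 17.8% (95% Wilson interval 17.3 to 18.3) of the 21851 peaks with a summit outside every gene body. The whole peak was outside gene bodies at 3889 of them, and at the other 3, past FAM43A, HSPB1 and ID1, part of a wide peak reached into one. Histone genes and 2 spans of chromosome 2 (14.5 to 16.0 Mb and 66.4 to 67.6 Mb) were left out. Also left out were 262 peaks within 600 bp past another gene's end, with which the count would be 4154. The 3892 peaks are called downstream peaks here, and each was assigned to the coding gene whose end was nearest. At 391 of them, or 10.0%, the end of a noncoding gene was nearer than that of the assigned gene.

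IMR-32 is an established human neuroblastoma cell line. The series used here holds 6 libraries, 2 of them from cells given DMSO. Another 2 came from cells given 400 nM THZ531 for 2 h, and 2 from cells exposed to it for 6 h at the same dose. The drug binds covalently to CDK12 and CDK13, kinases that phosphorylate the tail of RNA polymerase II. Per the methods, reads of every sample were merged before peak calling, and the merged samples are assumed to be these 6 libraries. The paper also describes such libraries from Kelly and Kelly E9R cells and from cells with CDK12 or CDK13 knocked down. Whether any of those were merged is not stated. Values below therefore carry no contrast between treatments and no replicate error, and the depth of a single library is unknown. Which treatment a downstream peak came from cannot be told apart in this list. All 8 sympathetic neuroblastoma markers looked up, among them HAND2 and GATA3, had a peak at an annotated transcript end (19 to 123 reads at the summit). Of 6 markers of other cells, PTPRC, ALB, KRT5, PECAM1 and MYH6 had none, and COL1A1 had 1 of 15 reads.

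As background, the 3′ end of most messenger RNAs is made when the nascent transcript is cut after a poly(A) signal, most often AATAAA when written as DNA, and a poly(A) tail is added. RNA polymerase II goes on past this site before it is released, and the RNA made there is normally degraded quickly. Libraries primed with oligo(dT) can also start inside a transcript at a run of genomic A, so an A-rich sequence just past a peak is a known source of peaks with no poly(A) tail. The list gives no strand, so both features were read on the strand of the assigned gene and, as a control, on the opposite strand of the same place. The cleavage site is expected at the 3′ edge of a peak on the strand of the transcript.

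The 8 tallest downstream peaks with AATAAA starting 10 to 35 bp before the 3′ edge and fewer than 18 A in any 25 bases of the 50 bp past it are shown for the sequence around the edge at which the signal was read. Each line holds 60 bases before the edge and 20 after it, in GRCh38 and 5′ to 3′ on the strand of the assigned gene, and capitals mark the AATAAA.
CDKN2C, chr1:50975255-50975334, + strand: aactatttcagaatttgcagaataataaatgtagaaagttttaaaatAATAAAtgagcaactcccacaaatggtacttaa
COA4, chr11:73870232-73870311, - strand: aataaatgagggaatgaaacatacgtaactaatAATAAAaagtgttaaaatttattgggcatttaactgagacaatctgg
FAM43A, chr3:194691689-194691768, + strand: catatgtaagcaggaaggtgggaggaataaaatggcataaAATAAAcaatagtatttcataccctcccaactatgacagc
IRF2BPL, chr14:77022865-77022944, - strand: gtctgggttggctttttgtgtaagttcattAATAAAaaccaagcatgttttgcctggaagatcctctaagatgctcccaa
BRD2, chr6:32982827-32982906, + strand: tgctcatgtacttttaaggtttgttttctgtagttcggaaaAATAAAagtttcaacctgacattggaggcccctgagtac
ASS1, chr9:130502301-130502380, + strand: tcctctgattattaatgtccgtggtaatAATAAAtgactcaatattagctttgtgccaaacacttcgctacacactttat
GART, chr21:33503151-33503230, - strand: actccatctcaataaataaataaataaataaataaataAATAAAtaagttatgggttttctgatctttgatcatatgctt
CBY3, chr5:179675477-179675556, - strand: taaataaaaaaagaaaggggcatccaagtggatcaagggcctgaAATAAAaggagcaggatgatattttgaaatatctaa
The CDKN2C peak had 63 reads at the summit, 601 bp past the annotated end. The other 7 ranged from 44 to 51 reads and lay 691 to 2980 bp past their gene ends. CBY3, with the peak at 2980 bp, had no end peak and no peak with its summit inside the gene. The AATAAA began from 13 bp (CDKN2C) to 32 bp (ASS1) before the edge. The summit lay 36 to 84 bp before the edge in 7 of these peaks. In the IRF2BPL peak, which was 1044 bp wide, it lay 798 bp before the edge, so the line printed for it is not the sequence at its summit. In the GART line the capitals stand within a run of repeated aata units, so that several other starts were possible there. The COA4 peak also lay within 10 kb past the end of a coding gene on the other strand, and which strand made it cannot be told apart.

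Downstream peaks were dense for intergenic sequence. The qualifying sequence, meaning every base that could have held a member, came to 69.0 Mb past 11083 genes, which was 5.95% of all intergenic bases. It held 56.4 peaks per Mb (exact 95% Poisson interval 54.7 to 58.2, counting error only). Sequence farther from genes held 8.27 per Mb (8.07 to 8.47), so downstream sequence was 6.82 times as dense (6.56 to 7.10). Sequence upstream of promoters was denser, with 71.9 per Mb (69.97 to 73.8), and the ratio of downstream to upstream density was 0.785 (0.753 to 0.818). That class, within 3 kb upstream of a gene start, could also lie 600 bp to 10 kb past a coding gene end. The size of this overlap was not counted.

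Most downstream peaks were low. The median had 11 reads at the summit (quartiles 7 and 17, range 3 to 99), against 13 upstream of promoters and 7 far from genes. The peaks with 50 or more reads numbered 65 downstream, or 1.67% (1.31 to 2.12), 45 upstream of promoters, or 0.826% (0.618 to 1.10), and 4 far from genes. The default of the peak caller keeps only 1 read per position and strand, and no other setting is stated. If it was used, reads at the summit count distinct start positions and understate tall sites. With reads extended to 100 bp, at most 200 could then stand at a summit. The tallest summit in the list had 189 reads on the 24 chromosomes and 200 on sequences outside them. The median deposited fold enrichment over the local background was 5.47, from 2.04 to 28.2.

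Density fell with distance over the first 4 kb and then stayed nearly level. It was 93.2 per Mb (83.8 to 103.3) from 600 bp to 1 kb, 78.8 (73.2 to 84.8) from 1 to 2 kb and 44.7 (40.2 to 49.6) from 3 to 4 kb. In the 1-kb bins between 4 and 9 kb it ranged from 48.0 to 54.7 per Mb, and it was 41.3 (36.3 to 46.8) from 9 to 10 kb. The first of these bins was 2.26 times as dense as the last (1.91 to 2.67). Height fell too: the median had 15 reads below 1 kb, 16 from 1 to 2 kb, and 8 in every bin from 6 kb on. A peak was called by its rise over the local background, so low peaks near a tall gene end could be missed. Past ACTB a peak of 39 reads had a fold of 2.65, while 8509 bp past SMC2 a peak of 9 reads had 4.57. How far this shaped height and density by distance or gene length was not tested. Peaks with −log10 q of at least 20 went from 6.71 per Mb in the first bin to 1.35 in the last, on 26 and 8 peaks, a ratio of 4.98 whose interval (2.19 to 12.7) overlaps that of all peaks.

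At the limits of the rule, 142 peaks outside genes lay in the 100 bp before the 600 bp limit with a median of 18 reads, and 89 downstream peaks lay in the 100 bp after it with a median of 15. At the far limit, 22 downstream peaks lay within the last 100 bp and 57 peaks outside genes lay in the next 100 bp. The peaks just outside were not required to pass the other parts of the rule.

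**Figure D1:**
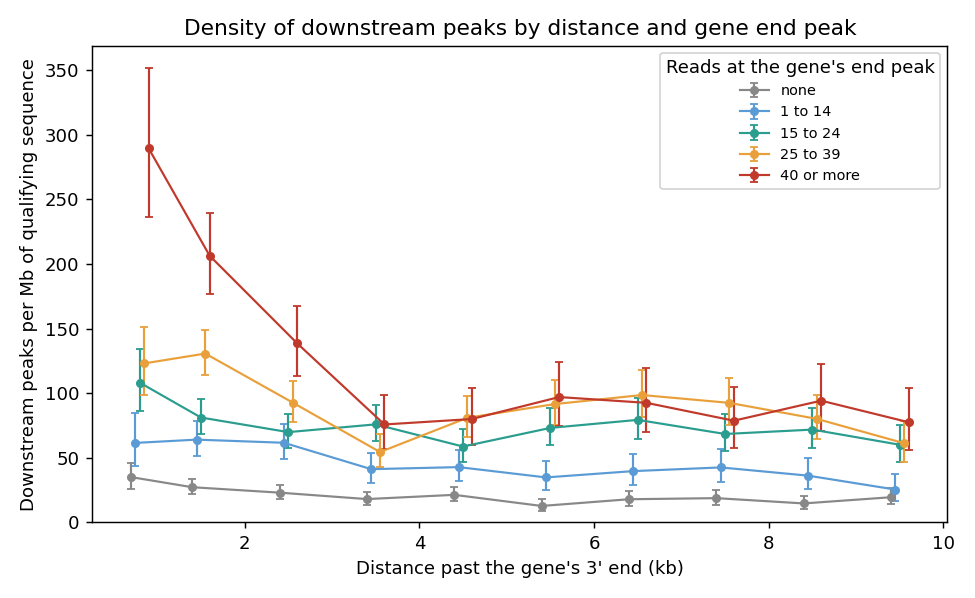
Downstream peaks per Mb of qualifying sequence (y axis) against distance past the gene's 3′ end (x axis, kb, points at bin centres and shifted slightly sideways), for genes in 5 classes by reads at their end peak. Bars are exact 95% Poisson intervals; genes with an end peak of 40 or more reads fall from 290 to 75.7 per Mb over the first 4 kb, while genes with no end peak start at 34.96 per Mb.

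Genes with a tall peak at an annotated transcript end had more downstream peaks. The end peak of a gene was the tallest peak with its summit from 200 bp before to 600 bp past any of its annotated transcript ends, and the height classes were chosen after the data were seen. Genes with no end peak held 20.4 downstream peaks per Mb (18.7 to 22.2), genes with 1 to 14 reads 45.2 (41.3 to 49.3), and genes with 40 or more reads 118.6 (110.3 to 127.4). The last class was 5.81 times as dense as the first (5.19 to 6.51). This ratio was 7.85 (6.39 to 9.68) from 600 bp to 2 kb and 4.98 (4.21 to 5.90) from 4 to 10 kb. Of 1088 genes with 40 or more reads, 41.8% (38.9 to 44.8) had at least 1 downstream peak, against 9.70% (8.82 to 10.7) of 3980 genes with no end peak. The 522 downstream peaks past genes with no end peak had a median of 9 reads.

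Far from the gene end, density differed less between classes of end-peak height. From 4 to 10 kb it was 68.5 per Mb (62.9 to 74.6) for genes with 15 to 24 reads, 84.6 (78.0 to 91.7) for 25 to 39 reads and 86.7 (77.4 to 96.7) for 40 or more, and the last 2 intervals overlap. Within 2 kb the same classes held 89.2, 128.3 and 231.3 per Mb, with intervals that do not overlap.

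A downstream peak was usually lower than the end peak of its gene. Over 3370 downstream peaks whose gene had an end peak, the median ratio of reads was 0.471 (quartiles 0.300 and 0.714), and 320 peaks, or 9.50% (8.55 to 10.5), were taller than the end peak. Up to 2 kb past the end the taller ones were 13.7% (11.6 to 16.0), and farther out 7.89% (6.88 to 9.03). If only 1 read per position and strand was kept, these ratios compare distinct start positions.

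Short genes had the most downstream peaks. Genes with an end peak were cut into quartiles by length, and shares were taken over those that also had qualifying sequence, which were 1438, 1678, 1874 and 2113 genes from the shortest quartile to the longest. Of the shortest (under 13.9 kb), 40.8% (38.3 to 43.4) had at least 1, against 29.4% (27.3 to 31.7), 32.4% (30.4 to 34.6) and 27.3% (25.4 to 29.2) of the next 3 quartiles. The ratio of the shortest to the longest quartile was 1.497 (1.36 to 1.64). Per Mb the difference was larger, 129.0 (121.2 to 137.2) against 54.6 (50.9 to 58.5), and long genes had more qualifying sequence, with a median of 9.40 kb, against 5.54 kb for short genes. Among genes with at least 9 kb of qualifying sequence, 56.4% (52.0 to 60.8) of the shortest quartile and 33.0% (30.4 to 35.8) of the longest had a downstream peak.

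End peaks of short genes were also somewhat taller, with a median of 25 reads in the shortest quartile and 21 in the longest. Within classes of end-peak height the density ratio of the shortest to the longest quartile was 1.92 (1.48 to 2.48) at 1 to 14 reads, 2.26 (1.88 to 2.70) at 15 to 24, 1.97 (1.67 to 2.32) at 25 to 39 and 2.40 (1.91 to 3.04) at 40 or more. In the lowest of these classes the intervals of the first 3 quartiles overlap. The densest group was short genes with tall end peaks, with 183.7 per Mb (165.6 to 203.2). Downstream peaks of the shortest quartile had a median of 17 reads and those of the longest 9.

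**Figure D2:**
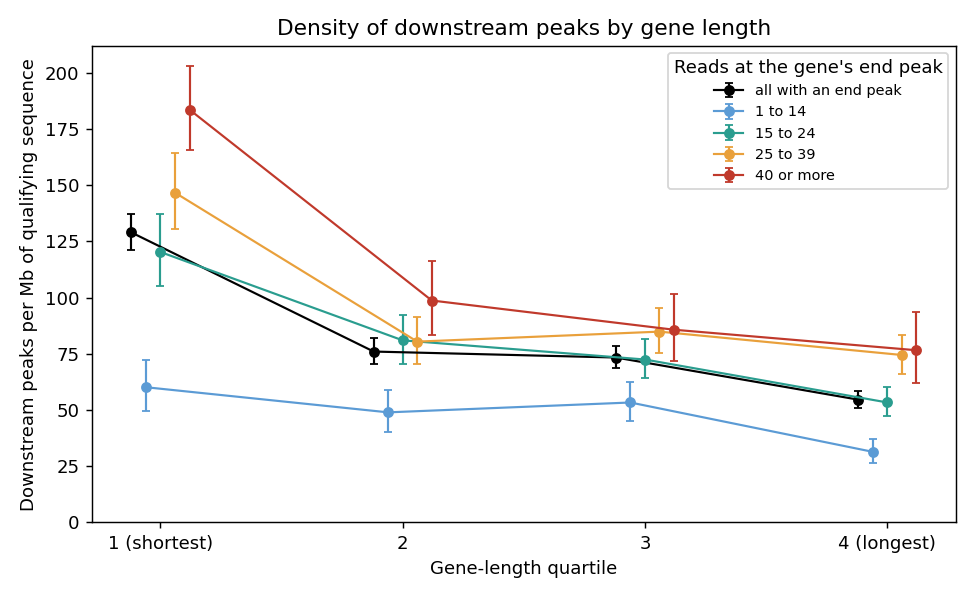
Downstream peaks per Mb of qualifying sequence (y axis) in quartiles of gene length (x axis, 1 shortest, 4 longest), for all genes with an end peak (black) and for 4 classes by reads at the end peak. Bars are exact 95% Poisson intervals; in each class the shortest quartile is the densest, up to 183.7 per Mb.

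Tall downstream peaks were wide, close to the gene end and past short genes. The 139 peaks with 40 or more reads had a median width of 321 bp, a median distance of 1516 bp and a median gene length of 5.64 kb. The 1119 peaks with 3 to 7 reads had 100 bp, 6066 bp and 50.8 kb. Peaks of 40 or more reads at coding gene ends had a median width of 229.5 bp. Of the 139, 64.0% (55.8 to 71.5) lay past genes shorter than 10 kb, against 25.8% of all downstream peaks, and 66.9% (58.7 to 74.2) lay within 2 kb of the gene end, against 27.7% (26.3 to 29.1). They belonged to 99 genes, and 18 of the 139 lay past a gene with no end peak.

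**Figure D3:**
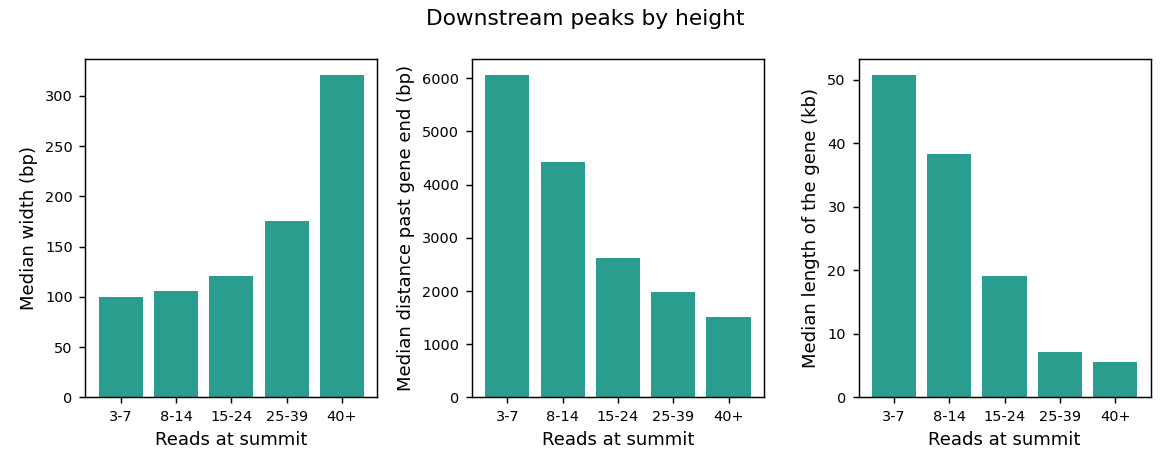
Median width (bp), median distance past the gene end (bp) and median length of the assigned gene (kb) of downstream peaks (y axes) in 5 classes by reads at the summit (x axes). The bars are medians over peaks, with no error drawn; width rises from 100 to 321 bp while distance falls from 6066 to 1516 bp and gene length from 50.8 to 5.64 kb.

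The tallest downstream peak lay 712 bp past the end of FAM43A. It had 99 reads, was 1422 bp wide and was followed by peaks of 78 reads at 1878 bp and 47 reads at 2674 bp. The 99-read peak began inside FAM43A and covered its annotated end, with its summit past that end. No peak had its summit at an annotated end of the gene, and the single summit inside the gene had 57 reads. CDKN2C, which encodes the cell cycle inhibitor p18, also had no end peak by its summits, with 5 peaks inside the gene of up to 56 reads, and downstream peaks of 63, 85, 44 and 42 reads at 601, 1160, 1500 and 2912 bp. The highest summit of both genes thus lay past the annotated gene.

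In the other genes with one of the 8 tallest downstream peaks, an end peak was present. ID1, an inhibitor of basic helix-loop-helix transcription factors, had 77 reads at its end, 86 at 1694 bp and 42 at 2481 bp. HAND2, a transcription factor of sympathetic neurons, had 71 at its end, 79 at 1197 bp and 58 at 1836 bp. BRD2, which binds acetylated histones, had 57 at its end and 69, 45, 55 and 49 at 782, 1345, 1879 and 3143 bp. ACTG1, which encodes cytoplasmic gamma-actin, had 97 at its end and 79 at 1922 bp, the latter before an A-rich sequence. In ID1, HAND2 and BRD2 the tallest downstream peak exceeded the end peak, and in ACTG1 it did not. HAND2 also had a peak of 81 reads inside the gene, above its tallest downstream peak.

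SERTAD4 stood apart from these genes by distance. Its tallest downstream peak had 69 reads at 7021 bp, against 27 at the gene end and 22 at 5919 bp. Fold enrichment over the local background was 20.4 for this peak, but 2.997 for the HAND2 peak of 79 reads and 3.65 for that of ACTG1. These 2 peaks close to a gene end thus rose less above their surroundings than the SERTAD4 peak did.

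Most genes had few downstream peaks. Of the 2651 genes with any, 1785 had 1, 597 had 2 and 185 had 3, while 65 had 4, 16 had 5 and 3 had 6. Genes with 2 or more held 54.1% of all downstream peaks, and neighbours past the same gene lay a median of 1223 bp apart (quartiles 583 and 2872).

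The 3 genes with 6 downstream peaks were ACTB, RPL3 and SMC2. Past ACTB, which encodes cytoplasmic beta-actin, peaks of 52, 66, 45, 48, 58 and 39 reads followed each other from 765 to 2661 bp, beside 63 at the gene end. The 5 farther ones lay inside a RefSeq gene, LOC221946, that the Gencode bodies used here do not cover. Past RPL3, a protein of the large ribosomal subunit, peaks of 35, 37, 29, 54 and 38 reads lay from 1340 to 3199 bp and 1 of 16 reads at 9880 bp, beside 40 at the end. Past SMC2, a condensin subunit, the peaks were lower, with 9 to 23 reads spread from 2124 to 8509 bp. Its end peak of 42 reads lay at an annotated transcript end inside the gene (chr9:104101975-104102168), not at the gene's 3′ end. None of the peaks of ACTB had AATAAA or ATTAAA 10 to 35 bp before the edge, and RPL3 had 1 with it and SMC2 had 2.

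Among genes with 5 downstream peaks, POP7, HNRNPK, RPS26 and HAND1 had high summed reads. POP7, a subunit of RNase P, had 27 to 41 reads from 603 to 3056 bp. HNRNPK, an RNA-binding protein, had 24 to 36 reads from 603 to 2324 bp. RPS26, of the small ribosomal subunit, had 24 to 30 reads from 1161 to 7273 bp. In HAND1, a relative of HAND2, the 2 farthest peaks (34 reads at 2825 bp and 43 at 3334 bp) were taller than the end peak of 28 reads.

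**Figure D4:**
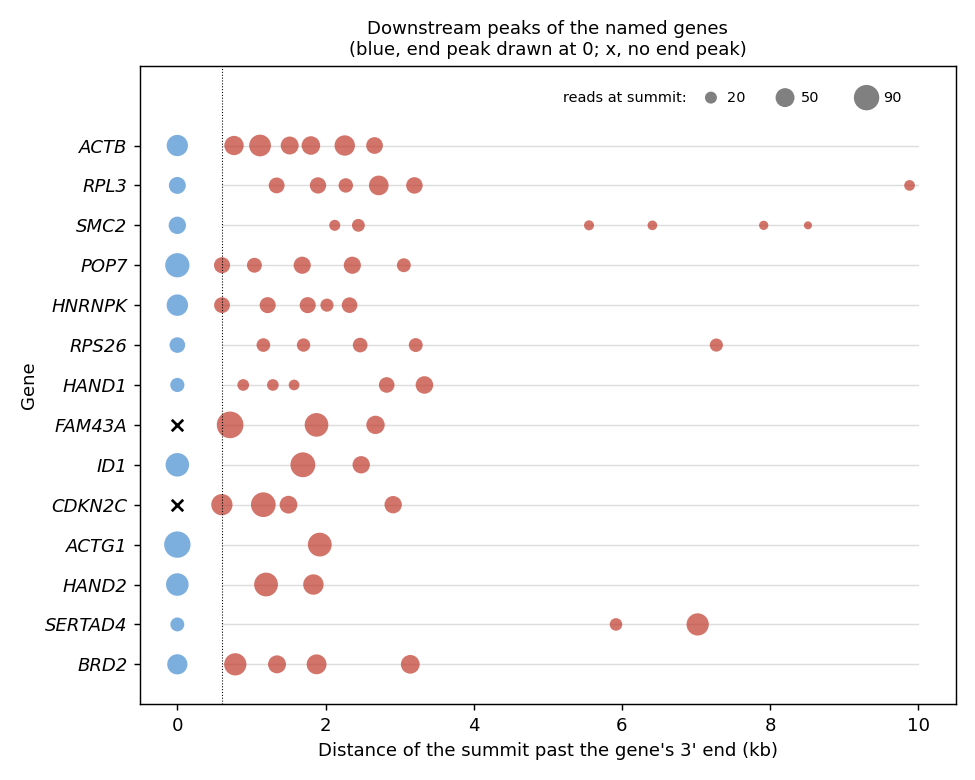
Downstream peaks (red) of genes with 5 or 6 of them and of the genes with the 8 tallest, as named in the text, by distance of the summit past the gene's 3′ end (x axis, kb), with 1 gene per row. Circle area is proportional to reads at the summit, the end peak (blue) is drawn at 0 whichever annotated end it lies at, a cross marks a gene with no end peak, and the dotted line marks 600 bp; most circles lie within 4 kb, and those of SERTAD4 do not.

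Poly(A) signals were more frequent on the strand of the assigned gene. Of the 3892 downstream peaks, 55.6% (54.0 to 57.1) had at least 1 of the 12 poly(A) signal hexamers used by the study in the 100 bp before the 3′ edge, against 39.4% (37.9 to 40.9) on the opposite strand. Tiles of the qualifying sequence, taken every 1 kb, gave 38.4% (38.1 to 38.8). Peaks at ends of coding genes, taken where no other gene lay within 600 bp, numbered 6345 and gave 90.2% (89.4 to 90.9). AATAAA alone was present at 1106 peaks, or 28.4% (27.0 to 29.9), and on the opposite strand at 467 (11.0 to 13.1%). In tiles its share was 7.75% (7.55 to 7.95).

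Position set the signal apart more clearly. AATAAA or ATTAAA starting 10 to 35 bp before the edge was found at 26.9% (25.5 to 28.3) of downstream peaks. The opposite strand had it at 7.97% (7.16 to 8.86) and tiles at 3.65% (3.51 to 3.79). Peaks at ends of coding genes had it at 65.99% (64.8 to 67.1), far more often than downstream peaks. AATAAA was most frequent 24 bp before the edge (2.36% of downstream peaks), as against 23 bp at peaks at ends of coding genes (5.34%). On the opposite strand no place within 10 to 60 bp passed 0.745%. Among 3437 downstream peaks with coding gene ends of 1 strand within 10 kb, 897 had this positioned signal on the gene's strand alone, 189 on the opposite strand alone and 49 on both. For the 455 with coding gene ends of both strands nearby, the shares were closer, 21.98% (18.4 to 26.0) and 15.8% (12.8 to 19.5), and the intervals overlap.

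**Figure D5:**
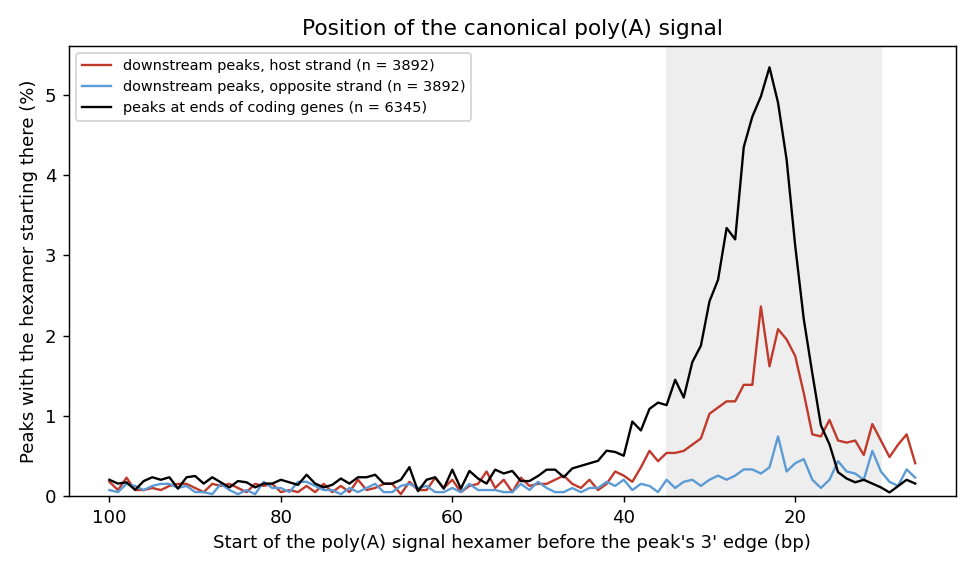
Share of peaks (y axis, %) in which AATAAA starts at each base before the 3′ edge (x axis, bp, running from 100 on the left to 6 on the right), for downstream peaks on the strand of the assigned gene, the same peaks on the opposite strand, and peaks at ends of coding genes. The grey band marks 10 to 35 bp; the curve of downstream peaks reaches 2.36% at 24 bp, below that of coding gene ends (5.34% at 23 bp) and above that of the opposite strand.

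A-rich sequence past the edge was also more frequent on the gene's strand. At least 22 A in 25 bases within 50 bp past the edge were found at 5.73% (5.04 to 6.50) of downstream peaks. The opposite strand had them at 2.06% (1.65 to 2.55) and tiles at 0.277% (0.241 to 0.319). With 18 or more A, the gene's strand gave 20.9% (19.6 to 22.2), the opposite strand 7.55% (6.76 to 8.43) and tiles 1.43% (1.34 to 1.52). Peaks at ends of coding genes had 18 or more A at 1.81% (1.51 to 2.17), far less often than downstream peaks. They were also taller: 484 of these 6345 peaks had 3 to 7 reads, against 1119 of the 3892 downstream peaks. The part of height in this contrast was not tested. The first 20 bases past the edge held 45.2% ± 26.9 A (SD over peaks), 22.5% ± 15.3 at ends of coding genes and 28.1% ± 13.4 in tiles. Per the paper's methods, peaks before a genomic A stretch were dropped if they had none of the 12 hexamers. Whether the list used here precedes that step was not tested. How many of the downstream peaks were primed on genomic A was not tested either.

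Both features split the downstream peaks into 4 groups. A positioned signal without A-rich sequence (18 or more A) was present at 987, or 25.4% (24.02 to 26.8), and A-rich sequence without the signal at 754, or 19.4% (18.2 to 20.6). Only 59 had both, and 2092, or 53.8% (52.2 to 55.3), had neither. The group with neither held 112 of the 139 peaks with 40 or more reads and had a median width of 115.5 bp, against 106 bp with the signal alone. Its median was 12 reads, against 11 with the signal alone and 8 with A-rich sequence alone.

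The 2 features varied differently with height. A-rich sequence (18 or more A) fell from 31.3% of peaks with 3 to 7 reads to 5.76% of those with 40 or more. The positioned signal was most frequent at 8 to 14 reads (32.6%, 30.3 to 35.1) and least at 40 or more (14.4%, 9.51 to 21.2). By distance, A-rich sequence rose from 8.86% below 1 kb to 27.8% from 9 to 10 kb, while the positioned signal ranged from 22.99% to 30.8% over the 10 bins. The 3′ edge of a wide peak need not be a cleavage site, and the part of width in these shares was not tested.

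Without strand, downstream peaks can be set beside other intergenic peaks only by whether either strand held a feature. The positioned signal was then at 33.5% (31.99 to 34.95) of downstream peaks, 25.95% (24.8 to 27.1) of those upstream of promoters and 23.8% (22.8 to 24.8) of those far from genes. Sequence with 18 or more A was at 28.4% (26.997 to 29.8), 25.8% (24.7 to 27.0) and 43.6% (42.4 to 44.8). Downstream peaks thus had the signal most often of the 3 classes, by intervals that do not overlap. The class upstream of promoters could include peaks that also lay past a coding gene end.

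TGTA, bound as UGUA by the cleavage factor CFIm, was in the 100 bp before the edge at 37.0% (35.5 to 38.5) of downstream peaks, 30.4% (28.9 to 31.8) on the opposite strand and 34.6% (34.2 to 34.9) of tiles. At ends of coding genes it was at 55.7% (54.5 to 56.9). TGTGT within 50 bp past the edge was at 7.09% (6.33 to 7.94), 4.96% (4.32 to 5.69) and 6.03% (5.85 to 6.21). Both differed by strand, but by far less than the positioned signal did.

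Another annotation covered part of the sites. By RefSeq gene extents (GRCh38.p14), 221 downstream peaks, or 5.68% (4.99 to 6.45), lay inside the assigned gene, where RefSeq places its end farther out, and 355 lay inside another gene only. The remaining 3316, or 85.2% (84.1 to 86.3), were in no RefSeq gene. The positioned signal was at 39.4% of the 221 and 26.0% of the 3316. The assigned gene's symbol was found in RefSeq for 98.7% of downstream peaks.

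Gene lists were described by the share of their genes with qualifying sequence and an end peak that had a downstream peak, beside 31.9% (30.8 to 33.0) and 77.6 per Mb (75.04 to 80.3) over all 7103 such genes. Cytosolic ribosomal protein genes, taken by symbol with their paralogues, had the highest share: 29 of 41, or 70.7% (55.5 to 82.4), with 294.2 per Mb (228.0 to 373.6). They were short and had tall end peaks, with medians of 5.33 kb and 53 reads. RPL6 had 62 reads at 1113 bp, beside 56 at its end, and RPL13 had 60 at 981 bp, beside 76.

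Among neuroblastoma core transcription factors, 7 of 12 had a downstream peak, or 58.3% (32.0 to 80.7). Among them were HAND2 (79 reads), TBX2 (58 reads at 6226 bp), INSM1 (50 at 604 bp), GATA3 (32 at 973 bp), KLF7 and ISL1 (11 each). The median length of these 12 genes was 10.5 kb and the median end peak had 53.5 reads. The interval is wide, and its lower bound lies at the share of all genes. Density was 145.2 per Mb (79.4 to 243.6), an interval that just overlaps that of all genes.

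Immediate early genes, which are induced within minutes of a stimulus, had a downstream peak in 8 of 16 (95% interval 28.0 to 72.0%). IER5 had the tallest, 60 reads at 1287 bp, beside 80 at its end. EGR1 had 56 at 1086 bp and BTG2 had 52 at 1773 bp with 3 further peaks. The interval of this share includes that of all genes. The density was 156.3 per Mb (83.2 to 267.3), with an interval just above that of all genes. That interval treats the 13 peaks as independent, although 4 of them lay past BTG2 alone. These genes were short, with medians of 5.73 kb and 42.5 reads at the end peak. Genes of the shortest quartile with end peaks of 40 or more reads held 183.7 per Mb (165.6 to 203.2).

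The intervals of the other lists also included the share of all genes. Cleavage and termination factors had 8 of 17, with a density of 157.9 per Mb (84.1 to 270.0). This interval lies just above that of all genes, but it treats the 13 peaks of 8 genes as independent. Medians of this list were 45.8 kb and 30 reads at the end peak, against 43.7 kb and 23 reads over all genes. The peaks of this list were low: the tallest had 18 reads, past PPP1R10 and RPRD1A. PAPOLA, the poly(A) polymerase, had 3 of up to 11 reads. Neuronal cytoskeleton and growth cone genes had 8 of 19 and 74.0 per Mb (35.5 to 136.2), with the tallest past NEFM, a neurofilament subunit (45 reads at 711 bp). DNA damage response genes had 8 of 26, or 30.8% (16.5 to 49.99), and 83.1 per Mb (41.5 to 148.7). The tallest of these had 19 reads, 3303 bp past XRCC2, a gene of homologous recombination, and CHEK1 had 14 at 8450 bp. U1 snRNP genes had 3 of 10 and 89.5 per Mb (24.4 to 229.1), led by SNRPB (28 reads at 1863 bp). Transcriptional CDKs and cyclins had 3 of 10 and 108.6 per Mb (39.9 to 236.5), led by CCNL1 (27 reads at 2990 bp). CDK12 itself, a target of THZ531, had 2, the taller of 14 reads at 7131 bp, beside 19 at its end.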

How the data were processed

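Poly(A) 3′-seq libraries of IMR-32 cells were mapped by the authors to GRCh38 with STAR 2.5.1b, which kept reads with up to 20 placements, and peaks were called once on merged reads with MACS2 2.1.1 with reads extended to 100 bp (versions from the submitters' processing notes). The deposited list gives each peak's fold enrichment, a ratio to local background, and −log10 p and −log10 q values, with no strand or per-library value. Reads at the summit were solved here from fold and −log10 p. Annotation was Gencode 44, which differs from the study's own. Peaks within 600 bp past another gene's end (262) were left out. Shares have 95% Wilson intervals, densities exact 95% Poisson intervals, and ratios of densities exact conditional intervals (log-scale intervals for ratios of shares). They treat neighbouring peaks as independent and cover counting error only. No p-value is given. The genes named were those with the most downstream peaks, the 8 tallest, the 8 tallest with a positioned signal, and the tallest in each gene list. Other list members, CDK12 and HSPB1 were named after their values were seen. Members and lists were chosen with earlier results of these data known. Some genes this rule names, and sequences of 1 chromosome, are not reported here. Scripts were tested on simulated data and run with Python 3.11.15, pandas 2.3.3, scipy 1.17.1 and pysam 0.24.0.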

Additional observations from a re-analysis of the deposited data

Results flagged for a closer look

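The list also held 423 peaks outside the 24 chromosomes, on 44 other sequences that include the mitochondrial genome and unplaced contigs, with a median of 10 reads at the summit and up to 200. They were set aside because the rule was applied on the 24 chromosomes alone, and they are given as a signal outside the main measurement.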

How the results depend on the processing

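No paired analysis was possible because peaks were called once over every library, and for the same reason no library could be left out. Of the 3892 downstream peaks, 2557 had −log10 q of at least 5 and 156 at least 20, and 1943 lay within 4 kb of the gene end; the other 5 settings gave 3501 to 4154. Genes with a downstream peak fell from 2651 to 149 at −log10 q of at least 20. Density was 37.1 per Mb at −log10 q of at least 5, 2.26 at 20, 77.6 for genes with an end peak and 20.4 for genes with none. The share with a hexamer was 28.4% for AATAAA alone, 35.4% for AATAAA or ATTAAA, 32.9% in 100 bp ending at the summit, 44.4% in 40 bp ending at the edge, 59.8% at −log10 q of at least 5 and 65.4% at 20. The share before an A stretch was 20.9% with 18 A, 4.93% at −log10 q of at least 5 and 0.641% at 20. The ratio of shares in the shortest and longest gene quartiles was 1.77 at −log10 q of at least 5, 4.04 (2.43 to 6.71) at 20 and 1.73 without A-rich peaks. Chosen after seeing the data, it was 1.71 for genes with at least 9 kb of qualifying sequence, 1.29 for end peaks of 25 to 39 reads, and 1.42 to 1.53 in the other 3 classes. It stayed above 1 throughout. Causes of these shifts were not tested. Low peaks are limited by depth and by the local background: 3 reads was the lowest summit.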
